A study of Homo sapiens with 8 samples.

Results

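The genes described here are the 36 aminoacyl-tRNA synthetase genes that a fixed list of symbols found among the 26364 genes of an RNA-seq count table from LN229 cells. They comprise 20 genes for cytosolic enzymes and 16 for mitochondrial enzymes, which carry the suffix 2. LN229 is an established human glioblastoma line. Cells with a stably integrated pcDNA3.1 plasmid coding for Survivin fused to eGFP were grown under G418 selection, either with the functional nuclear export signal (NES) and mostly cytoplasmic protein (Surv-GFP) or with a mutated NES (SurvNESmut-GFP). Each form is represented by 1 clone, so that clone and NES status cannot be told apart in any comparison between them. Both clones were left untreated or received 50 µM of the alkylating drug temozolomide (TMZ) for 48 h, which gives 4 groups of 2 libraries, lettered a and b.

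Aminoacyl-tRNA synthetases join each amino acid to its tRNA and so supply the ribosome with its substrates. Cytosolic and mitochondrial translation use separate sets of these enzymes, which are both encoded in the nucleus, except that GARS and KARS each code for both forms. When amino acids run short or the unfolded protein response is active, the transcription factor ATF4 raises the transcription of many cytosolic synthetase genes together with amino acid transporters and biosynthetic enzymes, as part of the integrated stress response. EPRS carries a glutamyl and a prolyl enzyme in a single chain, FARSA and FARSB are the subunits of the phenylalanyl enzyme, and 8 of the cytosolic enzymes assemble into the multisynthetase complex.

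Promoter sequences (RefSeq, GRCh38.p14, from 250 bases before to 50 bases after the annotated start) were at hand for 30 of the 36 genes. They were searched on both strands for TGATGNAA, the core of the C/EBP-ATF response element that ATF4 heterodimers bind. The letters were found in 7 of the 16 cytosolic genes with a window (43.8%), in 1 of 14 mitochondrial genes (7.14%) and in 1217 of all 27305 genes with a window (4.46%). The more stringent TGATGCAA was present in 6 cytosolic genes, in 0 mitochondrial genes and in 295 genes of all (1.08%). All 8 stretches with a match are shown, since the TMZ effects of these genes are set beside those of members without the letters. Each line holds 30 bases in the reading direction of the motif, with the motif in capitals.
AARS (chr16:70289675-70289704, plus strand): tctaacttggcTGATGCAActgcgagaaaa
CARS (chr11:3057407-3057436, plus strand): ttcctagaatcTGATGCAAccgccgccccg
GARS (chr7:30594834-30594863, minus strand): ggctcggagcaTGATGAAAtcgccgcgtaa
IARS (chr9:92293692-92293721, plus strand): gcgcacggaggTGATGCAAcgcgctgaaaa
MARS (chr12:57488053-57488082, minus strand): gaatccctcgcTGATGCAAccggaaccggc
NARS (chr18:57621804-57621833, minus strand): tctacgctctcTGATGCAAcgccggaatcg
TARS (chr5:33440956-33440985, minus strand): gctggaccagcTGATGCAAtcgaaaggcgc
YARS2 (chr12:32756076-32756105, minus strand): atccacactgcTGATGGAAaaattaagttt
With the annotated start of the window that held it as position 0, the motif began between -33 and 14 in 6 of the 7 cytosolic genes and at -187 in AARS. CARS, GARS and TARS also have a window at another annotated start, which held no match. In the mitochondrial tyrosyl enzyme gene YARS2 it began at -197. A match is a description of letters and was not tested as a binding site. The windows of SARS, WARS and EPRS held no match, which says only that these letters are not in the window. No window was given for DARS, LARS, VARS, YARS, AARS2 and VARS2.

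The 8 libraries held from 15826923 to 18861603 counts on genes, and all 36 members passed the filter on low counts that 14201 genes passed. The smallest count of any member was 109, for WARS2. Of 9 glioblastoma markers 8 were above 1 CPM (counts scaled to library size) in every group, while the astrocyte marker GFAP was below it. Of 6 markers of other cell types, COL1A1 and PDGFRB were above 1 CPM and the leukocyte, endothelial, epithelial and neuronal markers were at or near 0. The summed level of these 6 markers ranged from 10.7 to 19.5 CPM in Surv-GFP libraries and from 39.1 to 59.6 CPM in SurvNESmut-GFP libraries, and its part in the results was not tested. Replicates a and b of TMZ-exposed SurvNESmut-GFP cells lay further apart (chi-square per degree of freedom 5.74 over genes) than those of the other groups (2.2 to 2.66). BIRC5, the gene that encodes Survivin and is also on the plasmid, had 1152 and 1112 CPM in untreated Surv-GFP cells and 407 and 414 CPM in untreated SurvNESmut-GFP cells. With TMZ it had 1937 and 2029 CPM in Surv-GFP and 262 and 253 CPM in SurvNESmut-GFP cells, so that the clones lay further apart, and its part in the results was not tested.

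Upon TMZ, the summed level of the cytosolic synthetase genes was higher in both clones, with the larger ratio in the Surv-GFP clone, whereas the summed level of the mitochondrial genes was 0.962-fold and 1.01-fold of the untreated level. The 20 cytosolic genes summed to 3834 and 3949 CPM in untreated Surv-GFP cells and to 7523 and 7361 CPM with TMZ, a 1.91-fold mean increase. In SurvNESmut-GFP cells they summed to 4073 and 4124 CPM without TMZ and to 6226 and 5751 CPM with TMZ, a 1.46-fold mean increase. Both TMZ libraries lay above both untreated libraries in each clone, and both SurvNESmut-GFP TMZ libraries lay below both Surv-GFP TMZ libraries. The 16 mitochondrial genes summed to 742 ± 12.1 CPM (SD, n = 2) in untreated Surv-GFP cells and 714 ± 5.44 CPM with TMZ, against 898 ± 0.629 CPM and 903 ± 11.8 CPM in SurvNESmut-GFP cells. The ratio of cytosolic to mitochondrial counts accordingly went from 5.25 ± 0.195 to 10.4 ± 0.0805 in Surv-GFP and from 4.56 ± 0.0371 to 6.63 ± 0.285 in SurvNESmut-GFP cells (SD, n = 2). In bulk RNA, fewer cells that express a gene and less RNA of it per cell cannot be told apart.

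**Figure D1:**
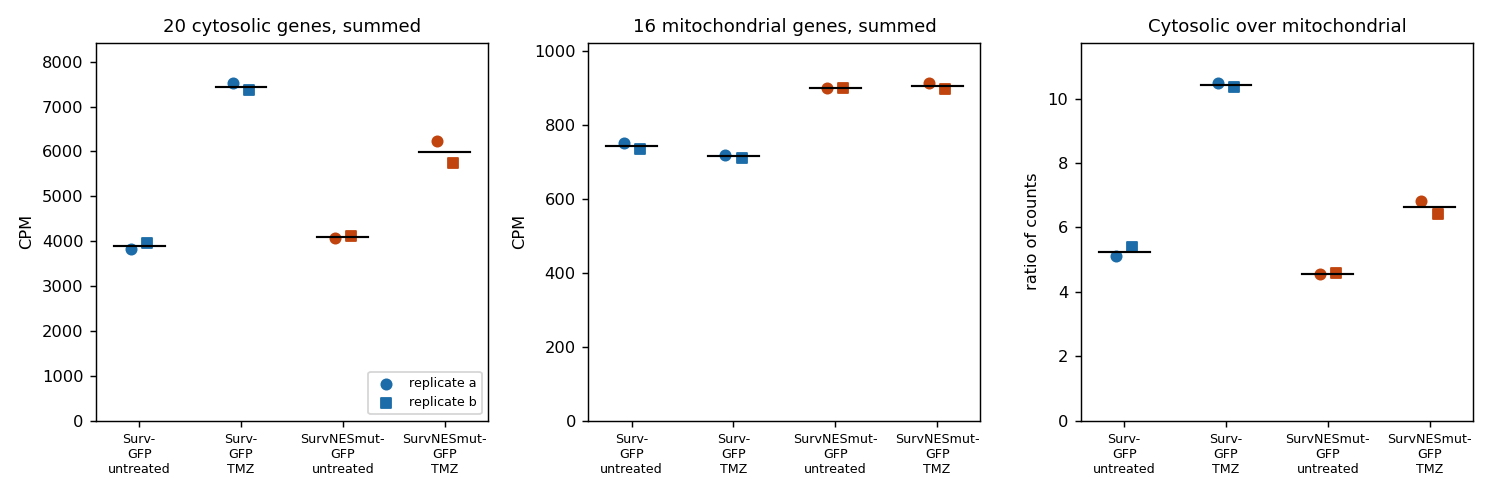
Summed CPM of the 20 cytosolic genes (left), summed CPM of the 16 mitochondrial genes (middle) and the ratio of their counts (right) in each of the 8 libraries, by group, with circles for replicate a, squares for replicate b and lines for the means. The cytosolic sum is highest in TMZ-exposed Surv-GFP cells (7523 and 7361 CPM), while the mitochondrial sum lies between 710 and 751 CPM in the Surv-GFP libraries and between 895 and 912 CPM in the SurvNESmut-GFP libraries.

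Of the 20 cytosolic genes 17 were higher (85%) and 1 lower upon TMZ in the Surv-GFP clone at an adjusted p of 0.05, where 30.1% of all tested genes were higher and 28.9% lower (edgeR's quasi-likelihood test with Benjamini-Hochberg adjustment). The median log2 fold change was 0.67 over the cytosolic genes, against 0.00 over all tested genes. In the SurvNESmut-GFP clone 14 of 20 were higher (70%) and 1 lower, with 18.6% and 19.1% of all genes, and the median was 0.53. The library values did not overlap for 18 cytosolic genes with higher and 1 with lower values upon TMZ in Surv-GFP, where this held for 39.9% and 39.6% of all tested genes. In SurvNESmut-GFP cells it held for 17 with higher and 3 with lower values, and for 34.5% and 33.5% of all tested genes. Of the 16 mitochondrial genes 3 were higher (18.8%) and 4 lower (25%) in the Surv-GFP clone, and 4 were higher (25%) and 1 lower (6.25%) in the SurvNESmut-GFP clone, to be read against the same shares of all genes. Their medians were 0.03 and 0.00.

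The strongest increases in the Surv-GFP clone were those of SARS, GARS, MARS, AARS and YARS, whose enzymes charge serine, glycine, methionine, alanine and tyrosine. SARS (chr1:109213918-109238148, plus strand; gene positions here and below from GENCODE release 29, GRCh38) had 198 and 194 CPM without TMZ and 699.9 and 698 CPM with it in Surv-GFP cells, and 183 and 189 CPM without and 391 and 355 CPM with TMZ in SurvNESmut-GFP cells. Its TMZ effect in Surv-GFP cells was a log2 fold change of 1.83 ± 0.05 (SE, adjusted p = 6.27e-14), a 3.56-fold increase that placed it at the 97.9th percentile of all tested genes. The untreated clones lay close together at this gene, and both SurvNESmut-GFP TMZ libraries lay between the untreated and the TMZ-exposed Surv-GFP libraries. GARS (chr7:30594681-30634033, plus strand), which encodes the enzyme of both compartments, went from 192 and 212 to 608 and 576 CPM in Surv-GFP cells and from 190.1 and 191 to 429 and 360.3 CPM in SurvNESmut-GFP cells. The log2 fold change in Surv-GFP cells was 1.55 ± 0.07 (SE, adjusted p = 1.53e-11). Replicates a and b of the TMZ-exposed SurvNESmut-GFP cells differed more at this gene than those of any other group, and no TMZ library overlapped an untreated one.

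MARS (chr12:57487957-57516649, plus strand), a subunit of the multisynthetase complex, had 189 and 205 CPM in untreated and 543 and 535 CPM in TMZ-exposed Surv-GFP cells, with 230.4 and 222 and then 467 and 397 CPM in SurvNESmut-GFP cells. A log2 fold change of 1.45 ± 0.07 (SE, adjusted p = 1.80e-11) was found in Surv-GFP cells. The TMZ libraries of each clone were above all 4 untreated libraries, and those of SurvNESmut-GFP were below those of Surv-GFP. The gene shares 62 of its 2905 exon bases (2.13%) with DDIT3 on the opposite strand, whose log2 fold change was 3.23. The part of these bases in the value of MARS was not tested, and whether reads were counted by strand was not given in the sources used here. Over 5% of exon bases were shared with other gene models in 8 members. They were SARS2 (83.1%), HARS2 (14.2%), WARS (11.0%), HARS (9.49%), EARS2 (8.15%), YARS (7.66%), CARS (7.46%) and AARS2 (6.1%). The part of shared bases in their values was not tested either.

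AARS (chr16:70252295-70289543, minus strand) rose from 324 and 338 to 889.9 and 877 CPM in Surv-GFP cells, a log2 fold change of 1.42 ± 0.05 (SE, adjusted p = 3.14e-13). The SurvNESmut-GFP libraries went from 271 and 265 to 482 and 469 CPM, so that the clones were apart in both conditions. YARS (chr1:32775239-32818153, minus strand) rose from 166 and 178 to 466 and 449 CPM in Surv-GFP cells (log2 fold change 1.41 ± 0.06, SE, adjusted p = 6.25e-12). Its SurvNESmut-GFP libraries had 205 and 213 CPM without and 416 and 369.9 CPM with TMZ, starting above and ending below those of Surv-GFP.

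The genes for the cysteinyl, threonyl and tryptophanyl enzymes rose over 2-fold in the Surv-GFP clone as well. CARS (chr11:3000922-3057613, minus strand) had 86.02 and 87.8 CPM without and 219.7 and 221 CPM with TMZ, a log2 fold change of 1.34 ± 0.05 (SE, adjusted p = 1.65e-12). Its SurvNESmut-GFP libraries had 111 and 116 CPM without and 210.1 and 199 CPM with TMZ, a higher start and a slightly lower end. TARS (chr5:33440696-33469539, plus strand) went from 150.2 and 155 to 337 and 329.6 CPM in Surv-GFP cells (log2 fold change 1.13 ± 0.05, SE, adjusted p = 1.63e-11) and from 172 and 177 to 266 and 246 CPM in SurvNESmut-GFP cells. WARS (chr14:100333788-100376805, minus strand), which interferon gamma is known to induce, went from 299 and 304 to 630.3 and 628 CPM (log2 fold change 1.06 ± 0.05, SE, adjusted p = 4.79e-11), against 198 and 189.9 CPM without and 351 and 317 CPM with TMZ in SurvNESmut-GFP cells. For TARS and WARS the 4 groups did not overlap. Of 10 tested interferon-induced genes 1 was higher and 6 were lower upon TMZ in the Surv-GFP clone, where 30.1% and 28.9% of all tested genes were. In the SurvNESmut-GFP clone 2 of them were higher and 3 lower, where 18.6% and 19.1% of all tested genes were. WARS rose in both clones, and a part of interferon in its rise was not tested.

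Among the other cytosolic genes named by size, IARS and LARS encode subunits of the multisynthetase complex and NARS the asparaginyl enzyme. IARS went from 221 and 228 to 456 and 437 CPM in Surv-GFP cells, a log2 fold change of 0.99 ± 0.05 (SE, adjusted p = 1.34e-10), and from 245 and 252 to 441 and 401 CPM in SurvNESmut-GFP cells. NARS had 247 and 259 CPM without and 432 and 417 CPM with TMZ in the former (log2 fold change 0.75 ± 0.05, SE, adjusted p = 5.66e-09), and 268 and 269 CPM without and 403 and 363 CPM with TMZ in the latter. The TMZ-exposed clones overlapped at IARS and the untreated clones did not, while at NARS neither pair overlapped. Log2 fold changes in Surv-GFP cells were 0.59 ± 0.05 (SE, adjusted p = 1.26e-08) for LARS, 0.56 ± 0.05 (SE, adjusted p = 1.01e-07) for FARSB, 0.55 ± 0.05 (SE, adjusted p = 1.07e-07) for FARSA and 0.51 ± 0.06 (SE, adjusted p = 8.24e-07) for EPRS. The remaining 6 cytosolic genes lay between -0.35 and 0.35. KARS (0.35), HARS (0.24) and VARS (0.17) were called higher, DARS (0.04) and RARS (0.02) were not called, and QARS was the 1 cytosolic gene called lower.

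QARS (chr3:49095932-49105135, minus strand) encodes the glutaminyl enzyme of the multisynthetase complex. It had 158 and 157 CPM in untreated and 125 and 123 CPM in TMZ-exposed Surv-GFP cells, a log2 fold change of -0.35 ± 0.05 (SE, adjusted p = 1.41e-05). In SurvNESmut-GFP cells 248 and 251 CPM without TMZ and 227 and 239.7 CPM with it were measured, with an adjusted p of 0.119 for the TMZ effect. All SurvNESmut-GFP libraries were above all Surv-GFP libraries. RARS, the arginyl enzyme gene of the same complex, had 160.3 and 161 CPM without and 166 and 160.3 CPM with TMZ in Surv-GFP cells, and the 2 groups overlapped.

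**Figure D2:**
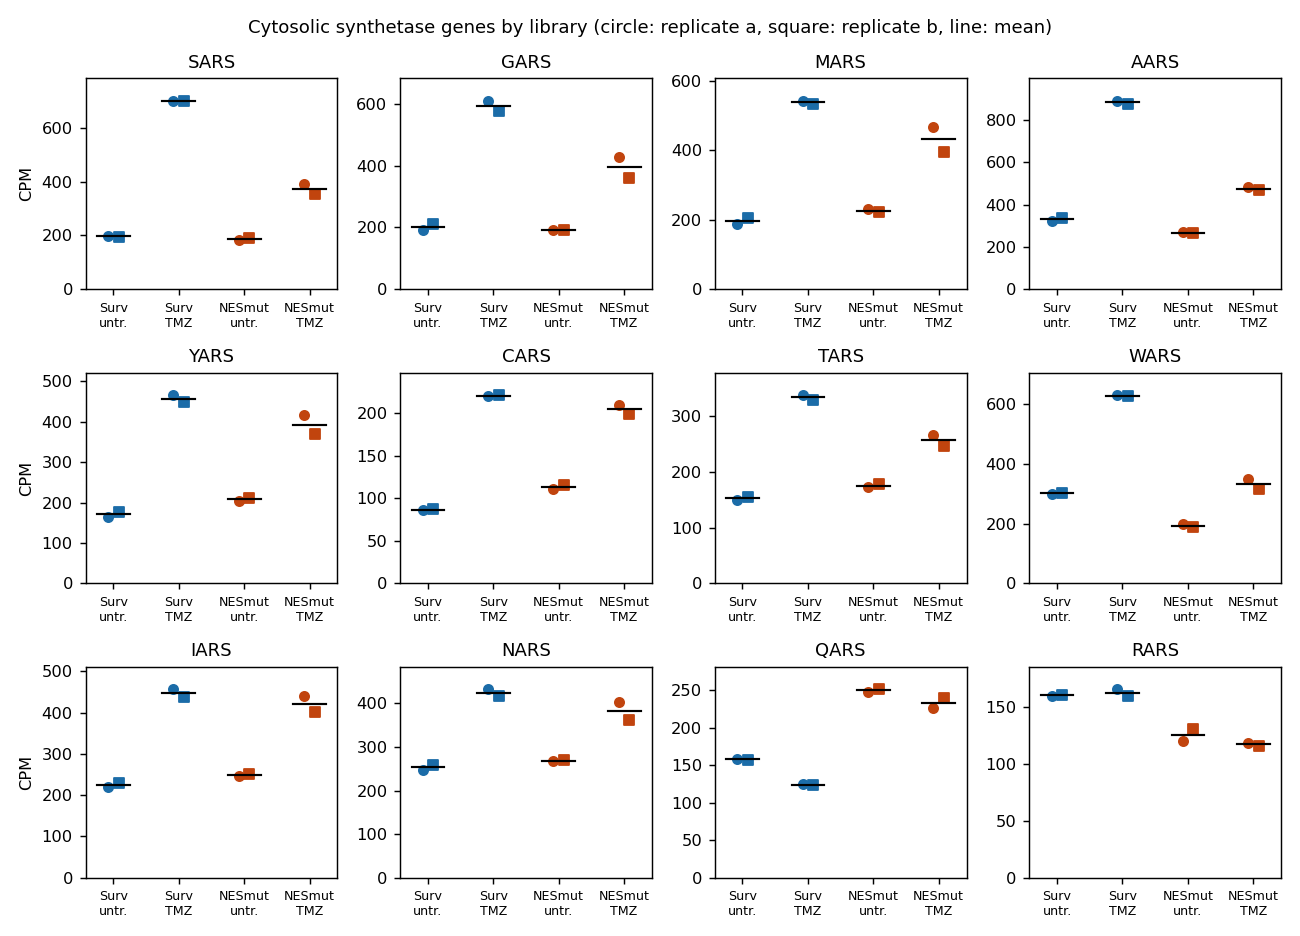
CPM of 12 cytosolic synthetase genes in each library, by group (Surv is Surv-GFP, NESmut is SurvNESmut-GFP, untr. is untreated), with circles for replicate a, squares for replicate b and lines for the means, each axis starting at 0. From SARS to NARS the TMZ libraries lie above the untreated libraries of the same clone, with SARS at 699 CPM in TMZ-exposed Surv-GFP and 373 CPM in TMZ-exposed SurvNESmut-GFP cells on average, whereas QARS and RARS do not rise.

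In the SurvNESmut-GFP clone 11 cytosolic genes rose by a log2 fold change of at least 0.5, where 6.86% of all tested genes did so, compared with 14 genes and 13.7% in the Surv-GFP clone. GARS (1.05 ± 0.07, SE, adjusted p = 9.41e-09) and SARS (1.01 ± 0.05, SE, adjusted p = 4.91e-10) were the 2 with a log2 fold change of at least 1 (2.37% of all tested genes), which 8 cytosolic genes reached in the Surv-GFP clone (5.18%). MARS had 0.93 ± 0.07 (SE, adjusted p = 1.63e-08), YARS 0.91 ± 0.06 (SE, adjusted p = 5.91e-09), CARS 0.85 ± 0.05 (SE, adjusted p = 2.04e-09) and AARS 0.83 ± 0.05 (SE, adjusted p = 1.17e-09). The 5 others were WARS with 0.78 ± 0.05 (SE, adjusted p = 1.15e-08), IARS with 0.76 ± 0.05 (SE, adjusted p = 1.54e-08), TARS with 0.55 ± 0.05 (SE, adjusted p = 3.87e-07), EPRS with 0.55 ± 0.06 (SE, adjusted p = 1.04e-06) and NARS with 0.51 ± 0.05 (SE, adjusted p = 1.66e-06). FARSB (0.46), LARS (0.34) and KARS (0.19) were called higher at smaller log2 fold changes, and DARS, the aspartyl enzyme gene, was called lower (-0.28 ± 0.06, SE, adjusted p = 9.10e-04). DARS had 129 and 141 CPM without and 107 and 116 CPM with TMZ in these cells, with no overlap. FARSA, HARS, QARS, RARS and VARS, with log2 fold changes between -0.10 and 0.13, were not called. Replicate b was below replicate a at 18 of the 20 cytosolic genes in TMZ-exposed SurvNESmut-GFP and at 17 in TMZ-exposed Surv-GFP cells, compared with 5 and 4 in the untreated groups. Without replicate b of TMZ-exposed SurvNESmut-GFP cells 17 cytosolic genes were called higher instead of 14.

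The TMZ effect on the log2 scale was lower in the SurvNESmut-GFP than in the Surv-GFP clone for 13 of 20 cytosolic genes and higher for 1, by the test of the difference between both effects, for which 20.2% of all tested genes were lower and 16.6% higher. The median difference over the cytosolic genes was -0.26 on the log2 scale. SARS had the most negative value with -0.83 ± 0.07 (SE, adjusted p = 3.34e-07), followed by AARS with -0.59 ± 0.06 (SE, adjusted p = 3.11e-06), TARS with -0.58 ± 0.07 (SE, adjusted p = 1.25e-05) and MARS with -0.52 ± 0.09 (SE, adjusted p = 3.68e-04). GARS (-0.50 ± 0.10, SE, adjusted p = 7.73e-04) and YARS (-0.50 ± 0.08, SE, adjusted p = 1.79e-04) also differed by at least 0.5, so that 6 cytosolic genes did, where 9.56% of all tested genes were lower by that much. CARS (-0.49), FARSA (-0.43), DARS (-0.32), WARS (-0.28), LARS (-0.25), NARS (-0.23) and IARS (-0.23) were called with smaller differences. The effect on QARS was the 1 that was higher, that is less negative, in SurvNESmut-GFP cells (0.25 ± 0.07, SE, adjusted p = 0.00897). For EPRS the difference was 0.04 ± 0.08 (SE, adjusted p = 0.741), with a TMZ effect of 0.51 in the Surv-GFP and 0.55 in the SurvNESmut-GFP clone; FARSB, HARS, KARS, RARS and VARS were not called either. Leaving out any 1 library left between 11 and 15 of the cytosolic genes with a lower effect in SurvNESmut-GFP cells.

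**Figure D3:**
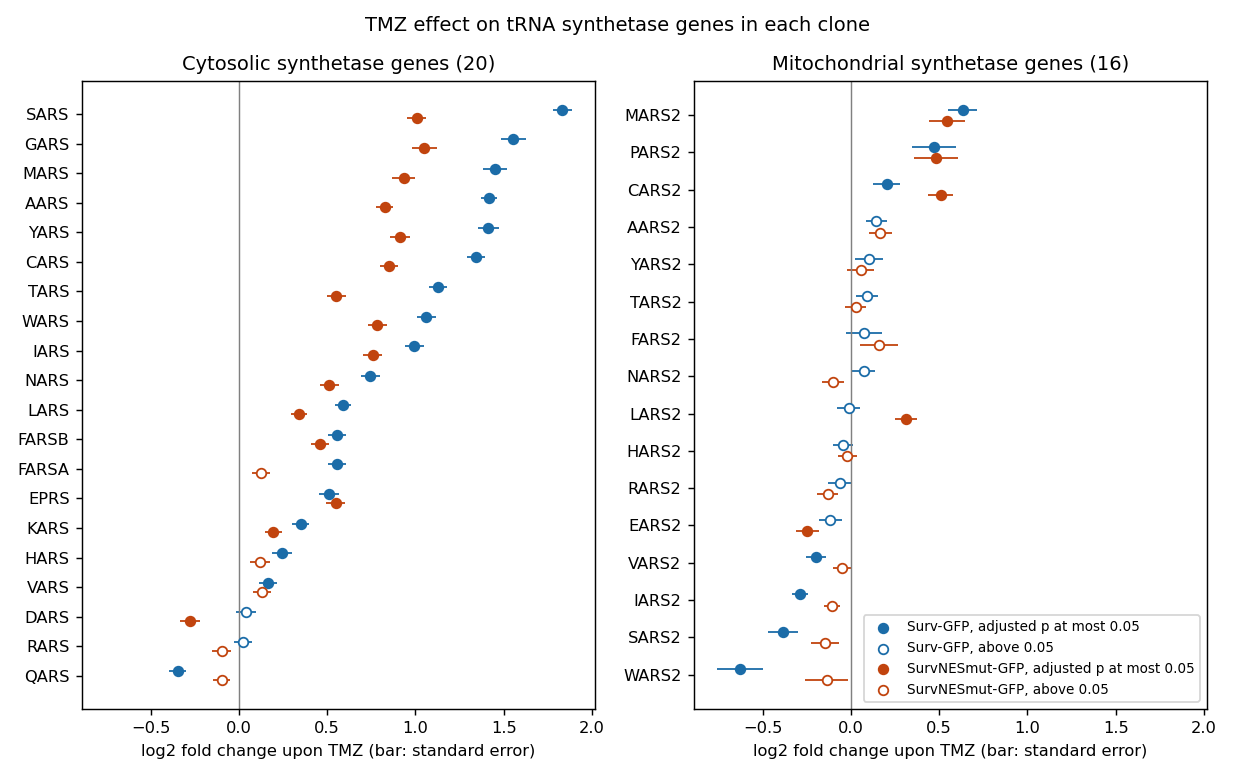
Log2 fold change upon TMZ of the 20 cytosolic (left) and 16 mitochondrial (right) synthetase genes in Surv-GFP (blue) and SurvNESmut-GFP cells (orange), with bars for the standard error and filled points for an adjusted p of at most 0.05. Cytosolic genes reach up to 1.83 in Surv-GFP and 1.05 in SurvNESmut-GFP cells, and mitochondrial genes lie between -0.63 and 0.63 in Surv-GFP cells.

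Among mitochondrial genes, MARS2, PARS2 and CARS2 were higher in both clones, and WARS2, SARS2, IARS2 and VARS2 were lower in the Surv-GFP clone. MARS2 (chr2:197705369-197708387, plus strand), the methionyl enzyme gene, had 19.2 and 18.8 CPM without and 29.99 and 28.97 CPM with TMZ in Surv-GFP cells and 10.6 and 10.00 CPM without and 15.9 and 14.1 CPM with TMZ in SurvNESmut-GFP cells. TMZ libraries were above untreated ones in each clone, and all SurvNESmut-GFP libraries were below all of Surv-GFP. Its log2 fold change was 0.63 ± 0.08 (SE, adjusted p = 6.80e-06) in Surv-GFP and 0.54 ± 0.10 (SE, adjusted p = 5.77e-04) in SurvNESmut-GFP cells, next to 1.45 and 0.93 for cytosolic MARS.

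PARS2, the prolyl enzyme gene, had 7.69 and 6.62 CPM without and 10.2 and 9.70 CPM with TMZ in Surv-GFP cells and 6.94 and 6.94 CPM without and 9.82 and 9.58 CPM with TMZ in SurvNESmut-GFP cells, with no overlap in either clone. The log2 fold changes were 0.47 and 0.48, against 0.51 and 0.55 for EPRS. CARS2 (chr13:110641417-110706157, minus strand), for cysteine, had 36.5 and 33.5 CPM without and 39.9 and 40.6 CPM with TMZ in Surv-GFP cells and 45.7 and 46.1 CPM without and 69.6 and 60.8 CPM with TMZ in SurvNESmut-GFP cells. Its TMZ effect was 0.20 in Surv-GFP, and 0.51 ± 0.07 (SE, adjusted p = 2.60e-05) in SurvNESmut-GFP cells, a difference of 0.31 ± 0.10 (SE, adjusted p = 0.0278). LARS2, for leucine, rose in the SurvNESmut-GFP clone from 58.7 and 54.98 to 74.1 and 66.98 CPM and was not called in the Surv-GFP clone, and the test of the difference gave 0.32 ± 0.09 (SE, adjusted p = 0.0106). Without replicate b of untreated Surv-GFP cells, neither PARS2 nor CARS2 was called in the Surv-GFP clone, and 1 mitochondrial gene, MARS2, was called higher there. CARS2 was also not called in that clone without either of its TMZ-exposed libraries, with the size factors of DESeq2 or by its Wald test, and the latter did not call PARS2 in SurvNESmut-GFP cells.

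WARS2 (chr1:119031216-119140671, minus strand), the tryptophanyl enzyme gene, had 9.05 and 10.7 CPM in untreated and 6.52 and 6.25 CPM in TMZ-exposed Surv-GFP cells, a log2 fold change of -0.63 ± 0.13 (SE, adjusted p = 5.42e-04), while cytosolic WARS rose by 1.06. Its SurvNESmut-GFP libraries had 10.9 and 10.3 CPM without and 9.52 and 9.83 CPM with TMZ. SARS2 for serine went from 20.7 and 20.9 to 15.9 and 16.01 CPM in Surv-GFP cells and was measured at 25.3 and 27.05 CPM without and 23.8 and 23.5 CPM with TMZ in SurvNESmut-GFP cells. The log2 fold change in the former was -0.39, next to 1.83 for SARS. However, 83.1% of the exon bases of SARS2 are shared with AC011455.2 on the same strand and MRPS12 on the opposite strand. The value of SARS2 is therefore uncertain. IARS2 and VARS2, for isoleucine and valine, fell by 0.29 and 0.20 on the log2 scale in the Surv-GFP clone. EARS2, for glutamate, was the 1 mitochondrial gene called lower in the SurvNESmut-GFP clone (-0.25 ± 0.07, SE, adjusted p = 0.00823), and it was not called without replicate b of its untreated cells. AARS2, FARS2, HARS2, NARS2, RARS2, TARS2 and YARS2 were called in neither clone, with log2 fold changes from -0.13 to 0.17. AARS2 in Surv-GFP cells had an adjusted p of 0.0526 and was called higher with the 4 libraries of that clone alone, without replicate a of its TMZ-exposed cells and without either TMZ-exposed SurvNESmut-GFP library. Among those not called YARS2, which holds the TGATGNAA letters, had 26.8 and 24.3 CPM without and 27.3 and 27.5 CPM with TMZ in Surv-GFP cells. The difference between both effects was called for 4 mitochondrial genes, WARS2 (0.49), LARS2, CARS2 and IARS2 (0.18), each with the higher value in SurvNESmut-GFP cells, where this held for 16.6% of all tested genes and 4 of 16 is not far from that share. This count fell to 0 without untreated SurvNESmut-GFP replicate b, to 1 without replicate b of untreated Surv-GFP, replicate a of TMZ-exposed Surv-GFP or replicate a of untreated SurvNESmut-GFP cells, and to 2 without replicate a of untreated or replicate b of TMZ-exposed Surv-GFP cells.

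Set against each other by amino acid, cytosolic and mitochondrial genes form 17 pairs here, with EPRS entering for glutamate and proline and FARS2 paired with both FARSA and FARSB. The cytosolic gene had the higher log2 fold change in 17 of 17 pairs in the Surv-GFP and 16 of 17 in the SurvNESmut-GFP clone, with median gaps of 0.67 and 0.39. The count ratio of cytosolic to mitochondrial gene was higher in both TMZ libraries than in both untreated ones for 16 pairs in Surv-GFP and 13 in SurvNESmut-GFP cells, and lower for 0. Among single tested genes, 39.9% in Surv-GFP and 34.5% in SurvNESmut-GFP cells were higher without overlap. No share was computed for other gene pairs. For SARS and SARS2 the ratio was 9.56 and 9.30 without and 44.1 and 43.6 with TMZ in Surv-GFP cells, against 7.23 and 6.98 and then 16.5 and 15.1 in SurvNESmut-GFP cells. WARS and WARS2 had ratios of 33.1 and 28.4 and then 96.6 and 100.4 in Surv-GFP cells. RARS and RARS2 had ratios of 3.83 and 3.82 without and 3.99 and 4.13 with TMZ in Surv-GFP cells. This pair is among the 16, although its gap in log2 fold change was only 0.08. HARS and HARS2, for histidine, lie head to head on chromosome 5 and their promoter windows overlap by 184 bases. In Surv-GFP cells HARS had a log2 fold change of 0.24 ± 0.06 (SE, adjusted p = 0.00155) and HARS2 one of -0.05 ± 0.06 (SE, adjusted p = 0.509); since the gene models share 402 exon bases on opposite strands, their counts are uncertain.

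**Figure D4:**
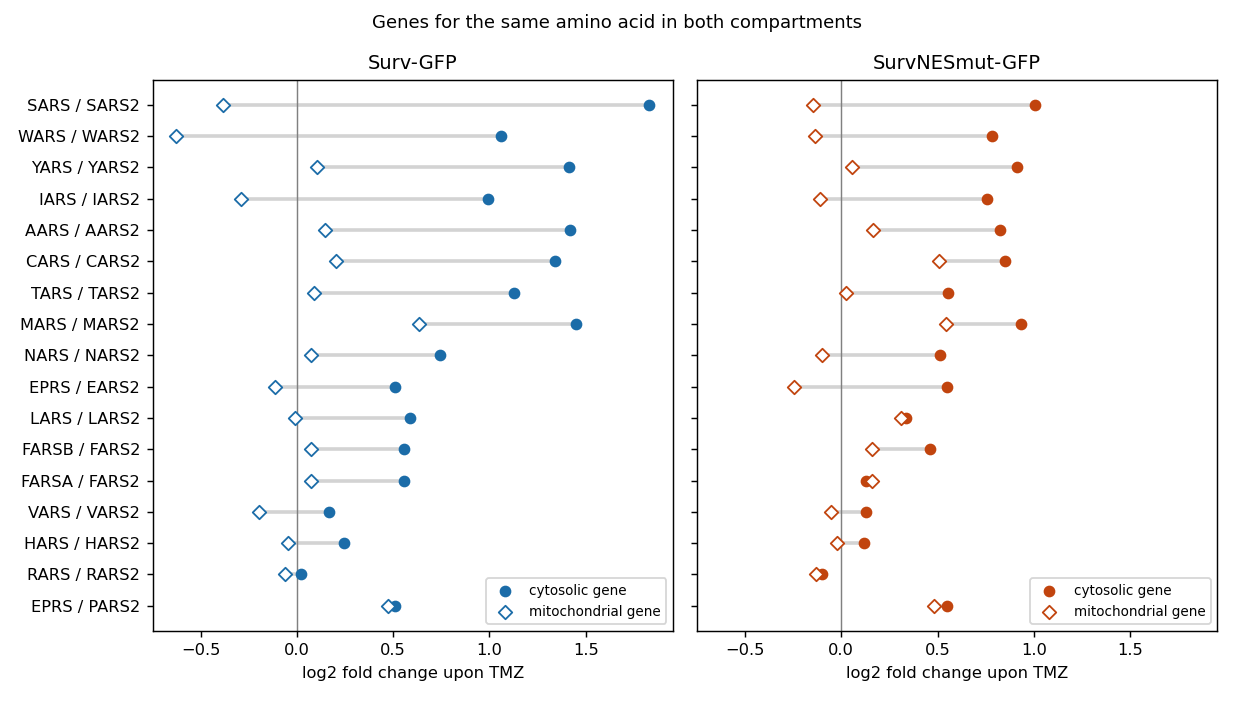
Log2 fold change upon TMZ of 17 pairs of a cytosolic (filled circles) and a mitochondrial gene (open diamonds) for the same amino acid in Surv-GFP (left) and SurvNESmut-GFP cells (right), ordered by the gap in Surv-GFP cells. The gap runs from 0.04 for EPRS and PARS2 to 2.22 for SARS and SARS2 in Surv-GFP cells, and FARSA lies below FARS2 in SurvNESmut-GFP cells.

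To ask how the clones differed apart from the drug, they were compared in each condition, SurvNESmut-GFP relative to Surv-GFP. Without TMZ 11 cytosolic genes were higher and 4 lower in SurvNESmut-GFP cells, with 34.7% and 29.4% of all tested genes. The median difference was 0.15, against 0.03 over all tested genes. Alternatives other than leaving out a library gave 8 to 11 cytosolic genes higher and 4 to 6 lower. QARS was the 1 cytosolic gene higher by at least 0.5 (0.66 ± 0.05, SE, adjusted p = 3.88e-09) and WARS the 1 lower by as much (-0.64 ± 0.05, SE, adjusted p = 2.61e-08), where 17.4% and 16.4% of all tested genes were. The count of 11 was 6 without untreated Surv-GFP replicate a, TMZ-exposed Surv-GFP replicate a or TMZ-exposed Surv-GFP replicate b. Of the mitochondrial genes 7 were higher and 2 lower. VARS2 (0.61 ± 0.05, SE, adjusted p = 4.62e-08) had 56.3 and 57.3 CPM in Surv-GFP and 86.99 and 86.1 CPM in SurvNESmut-GFP cells without TMZ, while cytosolic VARS differed by 0.24. MARS2 was lower in SurvNESmut-GFP cells (-0.89 ± 0.10, SE, adjusted p = 6.86e-07), and MARS was higher by 0.20, a call lost without replicate a of untreated cells of either clone or without either TMZ-exposed Surv-GFP library.

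With TMZ 12 cytosolic genes were lower and 3 higher in SurvNESmut-GFP cells than in the other clone, where 34.7% and 34.5% of all tested genes were, with a median of -0.19. WARS (-0.91 ± 0.05, SE, adjusted p = 1.91e-10), SARS (-0.91 ± 0.05, SE, adjusted p = 1.55e-10), AARS (-0.89 ± 0.05, SE, adjusted p = 4.33e-11) and GARS (-0.59 ± 0.07, SE, adjusted p = 1.04e-06) were lower by at least 0.5 and QARS was higher (0.91 ± 0.05, SE, adjusted p = 7.59e-11), where 19.6% and 20.5% of all tested genes were. EPRS (0.43) and VARS (0.21) were the other 2 that were higher, and VARS was not called without replicate a of TMZ-exposed SurvNESmut-GFP cells. Of the mitochondrial genes 9 were higher and 2 lower. CARS2 (0.70 ± 0.07, SE, adjusted p = 2.01e-07), IARS2 (0.66 ± 0.05, SE, adjusted p = 2.14e-09), WARS2 (0.60 ± 0.13, SE, adjusted p = 7.37e-04), SARS2 (0.57 ± 0.08, SE, adjusted p = 1.52e-05) and LARS2 (0.53 ± 0.06, SE, adjusted p = 1.71e-06) passed 0.5, as did VARS2 (0.75 ± 0.06, SE, adjusted p = 3.88e-09), whereas MARS2 was lower (-0.98 ± 0.09, SE, adjusted p = 5.28e-08). IARS2 had 205 and 201 CPM in untreated and 166 and 166 CPM in TMZ-exposed Surv-GFP cells and 281 and 285 CPM without and 261 and 264 CPM with TMZ in SurvNESmut-GFP cells, and the clones did not overlap. The cytosolic partners CARS (-0.11), IARS (-0.09) and LARS (-0.10) were not called. Without replicate a of TMZ-exposed SurvNESmut-GFP cells all 3 were called lower, LARS also without replicate b, and CARS and LARS also with the size factors of DESeq2 or without the filter on low counts. The count of 12 ran from 11 to 16 over the alternatives. These comparisons share their libraries with the TMZ effects above.

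**Figure D5:**
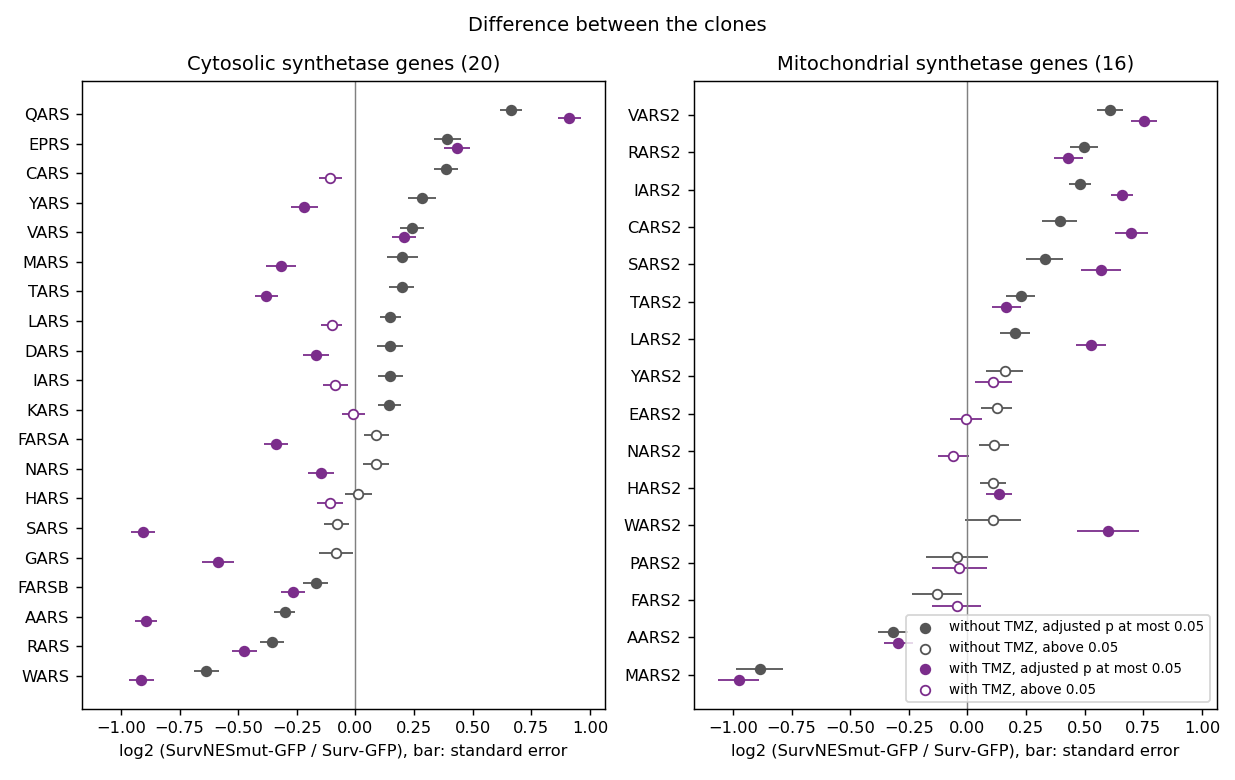
Log2 ratio of SurvNESmut-GFP to Surv-GFP cells without TMZ (grey) and with TMZ (purple) for the 20 cytosolic (left) and 16 mitochondrial (right) genes, with bars for the standard error and filled points for an adjusted p of at most 0.05. With TMZ, SARS, AARS and WARS lie near -0.9 and QARS at 0.91, and MARS2 is at -0.89 without and -0.98 with TMZ.

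The cytosolic genes were sorted further by assembly and by known regulation. Of the 8 genes of the multisynthetase complex 5 were higher and 1 lower upon TMZ in the Surv-GFP clone, with a median log2 fold change of 0.43, and of the 12 genes outside it 12 were higher, with a median of 1.09. In the SurvNESmut-GFP clone 5 of 8 were higher and 1 lower, and 9 of 12 were higher and 0 lower. These counts and those by ATF4 target stand beside 30.1% of all tested genes higher and 28.9% lower in the Surv-GFP clone, and 18.6% higher and 19.1% lower in the SurvNESmut-GFP clone. The scaffold genes of the complex, AIMP1 (0.56) and AIMP2 (0.57), were higher in the Surv-GFP clone and EEF1E1 (0.14) was not called. In the SurvNESmut-GFP clone AIMP1 was higher (0.18) and AIMP2 (-0.0035) was not called. From general knowledge 12 of the cytosolic genes are targets of ATF4. That list was written with earlier results of these data known, so its counts are no independent test of ATF4. All 12 were higher in both clones, with medians of 1.24 and 0.80. The effect was lower in SurvNESmut-GFP cells for 11 of them, where 20.2% of all tested genes were lower and 16.6% higher. Of the 8 cytosolic genes outside that list 5 were higher and 1 lower in Surv-GFP cells (median 0.20), and 2 higher and 1 lower in SurvNESmut-GFP cells (median 0.12). The 7 cytosolic genes with the TGATGNAA letters shown above belong to the list, which has a promoter window for 10 genes. Their log2 fold changes ranged from 0.75 to 1.55 in Surv-GFP cells (median 1.34) and from 0.51 to 1.05 in SurvNESmut-GFP cells (median 0.83). The 9 cytosolic genes with a window and without the letters ranged from -0.35 to 1.83 (median 0.51) and from -0.10 to 1.01 (median 0.19), with SARS and WARS among them.

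Other genes of the pathway were counted from lists written with the members. Of 20 genes of the integrated stress response 19 were higher in the Surv-GFP clone (median 1.94) and 18 in the SurvNESmut-GFP clone (median 1.23), where 30.1% and 18.6% of all tested genes were. The effect was lower in the latter clone for 15 of them and higher for 2. By the same test 20.2% of all tested genes were lower and 16.6% higher. In untreated cells, 13 of the 20 were already higher and 4 lower in the SurvNESmut-GFP clone (median difference 0.37). The shares of all tested genes in that comparison were 34.7% higher and 29.4% lower. ATF4 itself had log2 fold changes of 0.85 ± 0.05 and 0.52 ± 0.05 (SE), DDIT3, which encodes the stress factor CHOP, 3.23 ± 0.07 and 1.64 ± 0.09, and ASNS, asparagine synthetase, 2.46 ± 0.07 and 1.94 ± 0.07, each called in both clones. XPOT, the exporter that carries tRNA out of the nucleus, was higher by 1.34 ± 0.06 and 0.90 ± 0.06. Of 4 genes that complete mitochondrial charging, QRSL1, GATB and GATC of the glutamyl-tRNA amidotransferase and the formyltransferase gene MTFMT, QRSL1 was higher in Surv-GFP (0.32) and QRSL1 (0.49) and GATB (0.32) were in SurvNESmut-GFP cells. Among 85 tested genes of mitochondrial translation 36 were higher and 9 lower in the Surv-GFP clone and 16 higher and 8 lower in the SurvNESmut-GFP clone, with medians of 0.12 and -0.02. The 16 of 85 lie near the 18.6% of all tested genes that were higher in that clone. Of 5 cytosolic elongation factor genes 2 were higher in the former clone and 0 in the latter.

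Per kilobase of annotated exon, which allows levels to be compared between genes, the cytosolic genes had a median of 56.1 CPM per kb in untreated Surv-GFP cells, 88.9 with TMZ, 62.7 in untreated SurvNESmut-GFP cells and 84.3 with TMZ. The mitochondrial genes had medians of 12.5, 12.6, 12.6 and 13.8 CPM per kb. In untreated Surv-GFP cells SARS was the highest member with 101 CPM per kb and PARS2 the lowest with 3.05 CPM per kb. IARS2 was the highest mitochondrial gene (57.0 CPM per kb) and stood above its cytosolic partner IARS (46.9 CPM per kb). FARSB was the lowest cytosolic gene, with 21.7 CPM per kb. With TMZ, SARS reached 359 CPM per kb in Surv-GFP and 192 CPM per kb in SurvNESmut-GFP cells. The levels rest on exon lengths of GENCODE release 29, while the annotation behind the counts was not given in the sources used here.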

How the data were processed

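Total RNA of both clones underwent Illumina sequencing, and the submitters' processing notes name STAR 2.5.0b, Cufflinks 2.2.1 and edgeR. Their role for each file was not given in the sources used here, nor were genome build, annotation and strandedness. The deposited counts are unnormalized whole numbers of reads for each gene symbol. A further 5 deposited tables with the authors' own comparisons (log2 fold change, log2 CPM, F score, p-value and FDR) were not used. Rows without a gene (no feature 11.2 to 14.3%, ambiguous 1.19 to 1.28% of a library) were left out. Libraries were grouped by their labels. The study describes biological replicates in technical duplicate, and which of these the letters mark is not given, so that p-values measure only the spread between letters, which may be technical.

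The fits used edgeR 4.0.16 in R 4.3.3 and, as an alternative, DESeq2 1.42.0. One model with 4 group means was fitted to all 8 libraries after TMM normalization (factors 0.978 to 1.02) and edgeR's filter by group, with the quasi-likelihood F test, the legacy method and Benjamini-Hochberg adjustment over 14201 genes at 0.05. The standard error is the log2 fold change divided by the square root of F. All 4 groups share one estimate of the spread for each gene. Errors and p-values may therefore be too small where TMZ-exposed SurvNESmut-GFP cells enter, whose replicates lay further apart. CPM use TMM-scaled library sizes. Values are mean ± SD over n = 2, and errors cover these libraries only. The fit was also run on simulated counts with few changed genes and the same spread in every group. These data differ in both respects, so that run says nothing on their scaling or unequal spread. Members were named with full statistics at an adjusted p of at most 0.05 and an absolute log2 fold change of at least 0.5, with the gene of the other compartment beside them. Members and lists were chosen with earlier results of these data known, and no list was tested. The alternatives were other scaling, filter, tool, quasi-likelihood method, sample set and replicate block, and leaving out each library.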

Additional observations from a re-analysis of the deposited data

Results flagged for a closer look

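For 6 cytosolic synthetase genes the TMZ effect differed between the clones by at least 0.5 on the log2 scale, by the interaction test of edgeR. The difference, SurvNESmut-GFP minus Surv-GFP, was -0.83 for SARS, -0.59 for AARS, -0.58 for TARS, -0.52 for MARS, -0.50 for GARS and -0.50 for YARS. Each of these genes rose upon TMZ in both clones, from 1.13 to 1.83 in Surv-GFP and from 0.55 to 1.05 in SurvNESmut-GFP cells. Under the alternatives run, all 6 differences kept their direction and an adjusted p below 0.05, but not all kept a size of 0.5. With single libraries left out the difference reached -0.38 for GARS, -0.40 for MARS and -0.42 for YARS, and by other settings -0.49 for GARS and -0.48 for YARS. Each form of Survivin is represented by 1 clone, so that clone and NES status cannot be told apart. Single genes were not searched for outlying libraries, since the groups held 2 libraries each.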

How the results depend on the processing

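Of 1455 values recomputed under alternatives for 105 results, 1405 kept their direction and their side of the threshold. The counts of cytosolic genes higher upon TMZ were 15 to 17 in Surv-GFP and 13 to 17 in SurvNESmut-GFP cells when single libraries were left out. With DESeq2's Wald test the difference between TMZ effects was called higher for 2 mitochondrial genes instead of 4. Leaving out single libraries gave 0 to 3 for that count and 0 to 1 for mitochondrial genes with a lower effect (1 without TMZ-exposed SurvNESmut-GFP replicate a). It gave 1 to 4 mitochondrial genes higher upon TMZ in Surv-GFP cells (1 without untreated Surv-GFP replicate b). In SurvNESmut-GFP cells it gave 1 to 2 cytosolic genes lower (2 without TMZ-exposed SurvNESmut-GFP replicate b) and 0 to 1 mitochondrial genes lower (0 without untreated SurvNESmut-GFP replicate b). Without TMZ it gave 6 to 11 cytosolic genes higher in the SurvNESmut-GFP clone. For the clones without TMZ, the median over all tested genes was 0.034 in the main fit. It was -0.0030 and 0.00030 without TMZ-exposed Surv-GFP replicate a or b, and 0.034 without untreated Surv-GFP replicate a. The cause of these shifts was not tested.

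The direction changed only when single libraries were left out and only for 7 log2 fold changes that were not called. These ranged from -0.043 to 0.16 (FARS2) and -0.057 to 0.029 (LARS2) for TMZ in Surv-GFP, and from -0.0015 to 0.11 (YARS2) for TMZ in SurvNESmut-GFP cells. For the difference between TMZ effects they ranged from -0.028 to 0.10 (AARS2), -0.11 to 0.0012 (TARS2) and -0.12 to 0.016 (YARS2), and for the clones without TMZ from -0.0069 to 0.24 (WARS2). CARS2 upon TMZ in Surv-GFP cells lost its call in some settings, with an adjusted p of up to 0.216. Over all tested genes, deviations of the same letter correlated between -0.067 and 0.083 across groups, so the letters were not taken as pairs. At the cytosolic genes, however, replicate b was below a at 18 of 20 in TMZ-exposed SurvNESmut-GFP and 17 in TMZ-exposed Surv-GFP cells. A block common to all groups cannot take up a letter effect limited to TMZ-exposed cells. With the letter as a replicate block 17 cytosolic genes were called higher upon TMZ in Surv-GFP and 14 in SurvNESmut-GFP cells, and the difference was called lower for 13 cytosolic genes and higher for 3 mitochondrial genes instead of 4.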
